A study of Mus musculus with 82 samples.

Results

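This account covers 33 marker genes of non-parenchymal liver cells in primary mouse hepatocyte cultures, 19 of macrophages (Kupffer cells) and 14 of endothelial cells. The genes were chosen by name, and the probe sets annotated to each of them alone were taken from a table of Affymetrix array values. All 33 were present, with 57 probe sets, of 18032 genes measured in all. The study asked how the AMPK activators 991, a direct small-molecule activator, and AICAR, a nucleoside that cells convert to an AMP mimic, change gene expression with and without AMPK. Hepatocytes of C57BL/6 background were AMPK alpha1-/- alpha2-/- (dKO, lacking both catalytic subunits) or control (WT), and had 4 h of 991 at 3 µM, AICAR at 300 µM or vehicle (DMSO). They were obtained by collagenase perfusion and kept overnight on collagen in medium with dexamethasone, which every group shared, before the compounds were added. Each genotype had 2 preparations, labelled biological replicates 1 and 2, with 5 technical replicates of each treatment, except 4 of vehicle in dKO preparation 1, so that 59 arrays gave 12 preparation means. A set of 23 arrays of mouse embryonic fibroblasts (MEFs) of both genotypes, with 991 at 10 µM, AICAR at 2 mM or vehicle, served here only as a level without liver cells.

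Kupffer cells are the macrophages that live in the liver sinusoids, where they take up particles, old red blood cells and complement-coated microbes. The sinusoids are lined by a fenestrated endothelium that clears circulating waste through scavenger receptors. A collagenase digest followed by plating enriches hepatocytes, and some macrophages and endothelial cells usually stay with them, so the RNA of such a culture is a mixture. In bulk RNA of this kind, fewer cells of a type and less RNA per cell cannot be told apart.

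All values are log2 intensities of the authors' deposited table. A level is given for 1 gene across samples and not between genes, since each probe set has its own response. Array medians lay between 5.877 and 6.078 in hepatocytes and between 6.158 and 6.246 in MEFs. Prkaa1 (AMPK alpha 1) read 4.46 to 4.69 in the dKO preparation means and 5.15 to 5.72 in the WT means, without overlap. Prkaa2 (AMPK alpha 2) read 9.46 to 9.65 in dKO and 9.59 to 9.74 in WT, so its probe set did not separate the genotypes. Where its probes lie relative to the deleted part was not analysed here.

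Some preparation-to-preparation differences had been taken out of the deposited values before deposit, by a step not given in the sources used here. Averaged over both genotypes, preparation 2 and preparation 1 differed by less than 0.02 at every one of 45037 probe sets, while 34884 probe sets differed by more than that within dKO and 34596 within WT. The preparation differences of the genotypes are therefore mirror images of each other, with a correlation of -0.9997 across probe sets. What can be measured is the dKO minus WT difference within preparation number 2 and within preparation number 1, and the change between them. Whether a change lies in the dKO or in the WT preparations cannot be told apart.

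The promoters of 4 members that carry the results follow, each as the 250 bases before the transcription start listed first for the gene (GRCm38.p6). The RefSeq gene spans of Stab2, to 87008038, and Emcn, from 137341062, reach into their windows, so part of each lies within the gene. Clec4f had the largest change between preparation numbers among macrophage markers, Emcn the largest among endothelial markers, Cd68 the largest difference between genotypes and Stab2 the largest response to AICAR. Capitals mark 2 six-letter purine-rich motifs on either strand. GAGGAA, whose reverse complement is TTCCTC, is the core bound by PU.1, the ETS factor of macrophages, and CAGGAA, whose reverse complement is TTCCTG, is a core of the wider ETS family, whose members ERG and FLI1 act in endothelium. The motifs do not overlap in these windows.
Clec4f, chr6:83656117-83656366, minus strand: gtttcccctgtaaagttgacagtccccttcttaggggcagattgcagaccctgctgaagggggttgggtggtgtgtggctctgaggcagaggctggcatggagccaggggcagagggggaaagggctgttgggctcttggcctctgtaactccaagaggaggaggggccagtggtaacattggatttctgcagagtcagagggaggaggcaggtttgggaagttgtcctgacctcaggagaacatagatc
Cd68, chr11:69666171-69666420, minus strand: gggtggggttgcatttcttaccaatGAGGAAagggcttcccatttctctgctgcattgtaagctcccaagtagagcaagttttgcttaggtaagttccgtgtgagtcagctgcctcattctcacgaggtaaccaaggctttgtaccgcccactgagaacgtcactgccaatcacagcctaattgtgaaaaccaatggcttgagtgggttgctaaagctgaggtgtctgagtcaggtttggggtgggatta
Emcn, chr3:137340828-137341077, plus strand: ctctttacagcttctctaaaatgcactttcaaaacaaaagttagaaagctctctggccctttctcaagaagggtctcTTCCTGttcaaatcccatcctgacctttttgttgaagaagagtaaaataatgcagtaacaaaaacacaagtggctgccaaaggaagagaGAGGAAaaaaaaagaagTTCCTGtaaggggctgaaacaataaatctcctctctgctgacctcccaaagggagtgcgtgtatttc
Stab2, chr10:87007943-87008192, minus strand: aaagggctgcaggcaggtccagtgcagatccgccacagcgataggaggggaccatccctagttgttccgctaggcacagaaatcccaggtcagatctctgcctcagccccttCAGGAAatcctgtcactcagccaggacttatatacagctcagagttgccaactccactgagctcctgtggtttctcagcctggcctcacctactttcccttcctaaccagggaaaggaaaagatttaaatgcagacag
The Cd68 window held 1 GAGGAA and no CAGGAA, the Emcn window held 1 GAGGAA and 2 CAGGAA, and the Stab2 window held 1 CAGGAA and no GAGGAA. Neither run of letters was in the Clec4f window. Over the 14 macrophage members with a window, 10 held GAGGAA and 7 CAGGAA, and over the 10 endothelial members with one, 4 held GAGGAA and 7 CAGGAA. Of all 27025 genes with a window, 23.1% held GAGGAA and 25.4% CAGGAA. A match describes the letters only.

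Macrophage RNA was readily detected in the hepatocyte cultures. The level of 18 of 19 macrophage markers was above that of MEFs in every comparison of the 12 hepatocyte means with the 6 MEF group means, against 28.5% of all genes, and the median difference was 2.86. C1qb, a chain of the complement component C1q that tissue macrophages make, read 8.47 to 9.54 in hepatocyte cultures and 3.09 to 3.29 in MEFs. Clec4f, a lectin receptor that in mouse liver marks Kupffer cells, read 7.56 to 8.43 in hepatocyte cultures and 6.04 to 6.24 in MEFs. Cd5l, a secreted protein of tissue macrophages, read 8.39 to 9.09 in hepatocyte cultures and 4.68 to 4.87 in MEFs. Fcgr1, the high-affinity IgG receptor, overlapped the fibroblasts on its brighter probe set, at 5.67 to 5.99 in hepatocyte cultures and 5.72 to 5.91 in MEFs. Its other probe set read 4.51 to 5.04 in hepatocyte cultures, with a mean of 4.03 in MEFs.

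Endothelial markers stood above MEFs in 10 of 14 cases, against 28.5% of all genes, with a median difference of 0.80. Lyve1, a hyaluronan receptor of sinusoidal endothelium, read 7.82 to 8.60 in hepatocyte cultures and 2.98 to 3.13 in MEFs. Stab2, a scavenger receptor of the same cells, read 7.54 to 8.59 in hepatocyte cultures and 5.24 to 5.41 in MEFs. Kdr, the main VEGF receptor, was only 0.32 above MEFs on average. Eng, Ptprb, Egfl7 and Fcgr2b overlapped the MEF levels, so that their probe sets did not tell endothelium from fibroblasts here. For Fcgr2b, the inhibitory IgG receptor of sinusoidal endothelium, the brightest of 5 probe sets stands for the gene, and another read 7.17 to 7.94 in hepatocyte cultures with a mean of 3.51 in MEFs. These values are levels set across 2 cell types that may have been normalized separately, and no test was made.

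**Figure D1:**
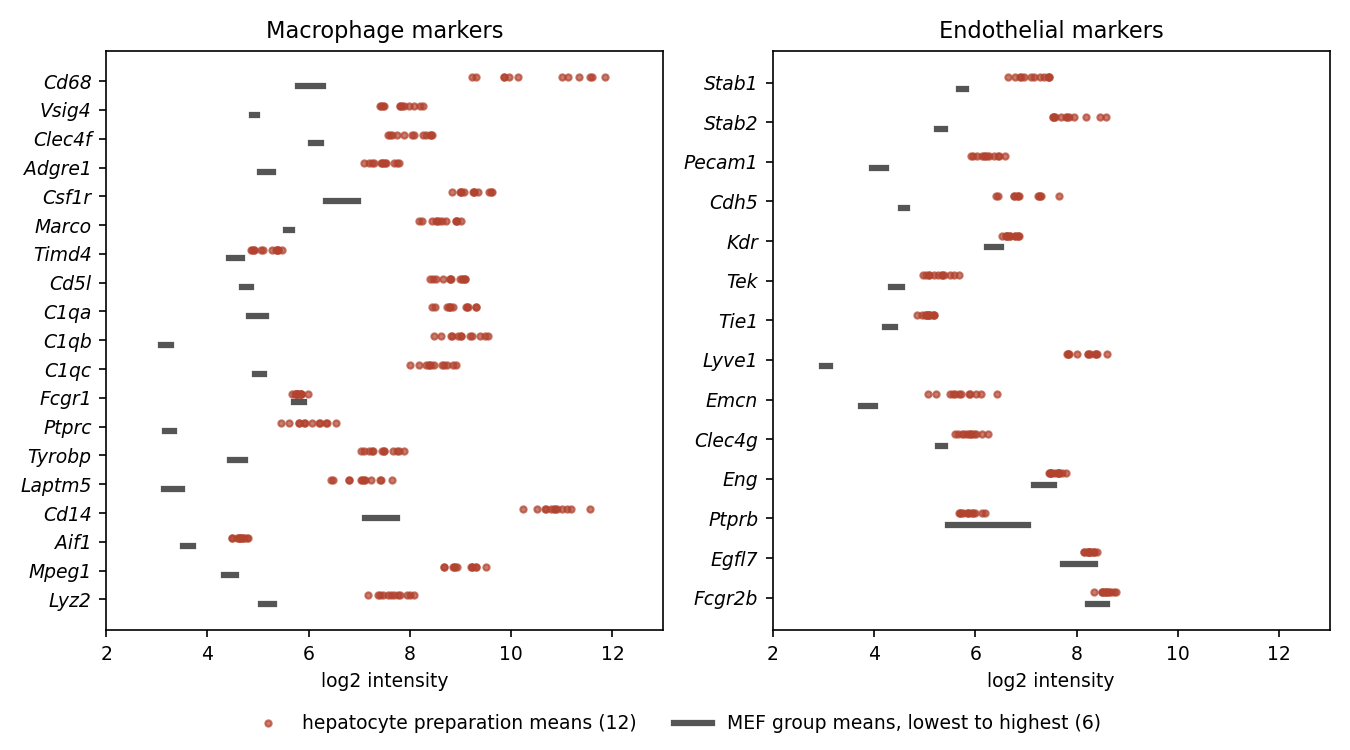
Levels (log2 intensity) of the 19 macrophage and 14 endothelial markers. Points are the 12 hepatocyte preparation means and bars run from the lowest to the highest of the 6 MEF group means. For 18 macrophage and 10 endothelial markers every point lies right of the bar.

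Other lists differed widely by the same yardstick. Macrophage genes outside the members stood above MEFs in 19 of 31 cases with a median difference of 0.91. Endothelial genes outside the members did so in 20 of 35 with 0.61. Hepatocyte genes stood above MEFs in 21 of 22 cases with a median difference of 8.32, lymphocyte genes in 6 of 15 with 0.18, neutrophil genes in 2 of 8 with 0.28 and stellate cell or fibroblast genes in 6 of 19 with -0.24. Cholangiocyte genes stood above in 3 of 7 with 0.16 and erythroid genes in 2 of 4 with 0.20. The share over all genes was 28.5%, with a median difference of -0.07. Proliferation genes were below MEFs, with 0 of 9 above and a median difference of -5.95.

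The difference between dKO and WT hepatocytes in macrophage RNA depended on the preparation number. In preparation 2 all 19 macrophage markers read lower in dKO than in WT under each of the 3 treatments, with a median difference of -0.63, against 21.3% of all genes. In preparation 1 only 10 did, against 27.2% of all genes, 7 read higher in dKO under each treatment, against 26.4% of all genes, and the median was -0.04. The dKO minus WT difference was lower in preparation 2 than in preparation 1 for 14 of 19 macrophage and 9 of 14 endothelial markers, and higher for none (limma, adjusted p under 0.05). Of all genes, 15.1% were called lower and 10.9% higher in the same test. It sets 4 preparations against the spread between treatments within them, so it describes these preparations and not the genotypes.

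Of the macrophage markers Clec4f changed most between preparation numbers. Values are given in the order 991, AICAR, vehicle throughout. Clec4f read 7.60, 7.88 and 7.56 in dKO preparation 2 and 8.25, 8.43 and 8.09 in dKO preparation 1, against 8.31, 8.41 and 8.40 in WT preparation 2 and 7.74, 8.05 and 7.64 in WT preparation 1. The dKO cultures read lower than WT in preparation 2 and higher than WT in preparation 1, without overlap in either. The dKO minus WT difference was -0.69 ± 0.15 in preparation 2 and 0.45 ± 0.06 in preparation 1 (SD over 3 treatments), and the change between them was -1.14 with a standard error (SE) of 0.10, a 2.20-fold change (limma, adjusted p = 5.95e-06).

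Cd5l, a macrophage gene of the liver under the control of LXR, had the same pattern. Cd5l read 8.51, 8.79 and 8.39 in dKO preparation 2 and 9.02, 9.09 and 8.81 in dKO preparation 1, against 8.99, 9.08 and 9.05 in WT preparation 2 and 8.66, 8.80 and 8.46 in WT preparation 1. Its dKO minus WT difference was -0.47 ± 0.18 in preparation 2 and 0.33 ± 0.04 in preparation 1.

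Genes shared by macrophages and other leukocytes moved with it. Laptm5 read 6.45, 7.04 and 6.48 in dKO preparation 2 and 7.09, 7.42 and 7.06 in dKO preparation 1, against 7.23, 7.40 and 7.64 in WT preparation 2 and 6.80, 7.11 and 6.80 in WT preparation 1. Laptm5 is a lysosomal membrane protein of blood cells. Its 4 other probe sets changed less, with dKO minus WT differences of -0.27 to -0.02 in preparation 2 and -0.04 to 0.17 in preparation 1. Ptprc read 5.46, 5.91 and 5.61 in dKO preparation 2 and 5.93, 6.34 and 6.23 in dKO preparation 1, against 6.20, 6.54 and 6.37 in WT preparation 2 and 5.80, 6.06 and 5.80 in WT preparation 1. Ptprc encodes CD45, the phosphatase on all nucleated blood cells, and its dKO minus WT difference was -0.71 ± 0.07 in preparation 2 and 0.28 ± 0.15 in preparation 1. Mpeg1 read 8.67, 8.87 and 8.67 in dKO preparation 2 and 9.23, 9.23 and 9.20 in dKO preparation 1, against 9.30, 9.31 and 9.50 in WT preparation 2 and 8.93, 8.90 and 8.86 in WT preparation 1. Mpeg1 encodes perforin-2, a pore-forming protein of phagocytes. Tyrobp read 7.03, 7.19 and 7.09 in dKO preparation 2 and 7.48, 7.74 and 7.48 in dKO preparation 1, against 7.67, 7.88 and 7.79 in WT preparation 2 and 7.26, 7.45 and 7.28 in WT preparation 1. Tyrobp is the DAP12 adaptor of myeloid receptors. In each of these genes dKO read below WT in preparation 2 and above WT in preparation 1 under every treatment, and the change between preparation numbers lay between -1.05 (Laptm5, SE 0.13) and -0.92 (Tyrobp, SE 0.07).

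The change between preparation numbers was -0.81 for Cd5l, and -0.90 for C1qb, -0.65 for C1qa and -0.54 for C1qc, the chains of C1q. Also called were Cd68, with -1.03, the endotoxin co-receptor Cd14 (-0.59), the scavenger receptor Marco (-0.49), the CSF1 receptor Csf1r (-0.34) and the lysozyme gene Lyz2 (-0.33). Other Csf1r probe sets changed less, with dKO minus WT differences of -0.32 and -0.20 in preparation 2 and -0.20 and -0.19 in preparation 1.

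Some macrophage genes were lower in dKO in both preparation numbers. Cd68 read 9.30, 9.85 and 9.22 in dKO preparation 2 and 9.96, 10.13 and 9.86 in dKO preparation 1, against 11.85, 11.59 and 11.55 in WT preparation 2 and 11.34, 11.12 and 11.01 in WT preparation 1. Cd68 is a lysosomal membrane glycoprotein used as a general macrophage marker. The highest dKO mean, 10.13, was below the lowest WT mean, 11.01. Its dKO minus WT difference was -2.20 ± 0.42 in preparation 2 and -1.18 ± 0.20 in preparation 1, and the change between them was -1.03 with an SE of 0.09 (limma, adjusted p = 6.69e-06).

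Vsig4, a complement receptor of resident macrophages, was lower in dKO by a like amount in both preparations. Vsig4 read 7.41, 7.84 and 7.49 in dKO preparation 2 and 7.43, 7.98 and 7.46 in dKO preparation 1, against 7.80, 8.20 and 8.08 in WT preparation 2 and 7.89, 8.25 and 7.80 in WT preparation 1. Its dKO minus WT difference was -0.44 ± 0.12 in preparation 2 and -0.36 ± 0.09 in preparation 1, and the change between them was -0.08 with an SE of 0.10 (limma, adjusted p = 0.625). Adgre1, an adhesion receptor of mature macrophages, and Timd4, a phosphatidylserine receptor of resident Kupffer cells, also read lower in dKO, with differences of -0.39 and -0.45 in preparation 2 and -0.27 and -0.40 in preparation 1. Timd4 stood only 0.56 above MEFs on average. Fcgr1 (5.67 to 5.99 over the 12 means) and Aif1 (4.48 to 4.80) also did not pass, with changes of -0.18 and -0.12.

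**Figure D2:**
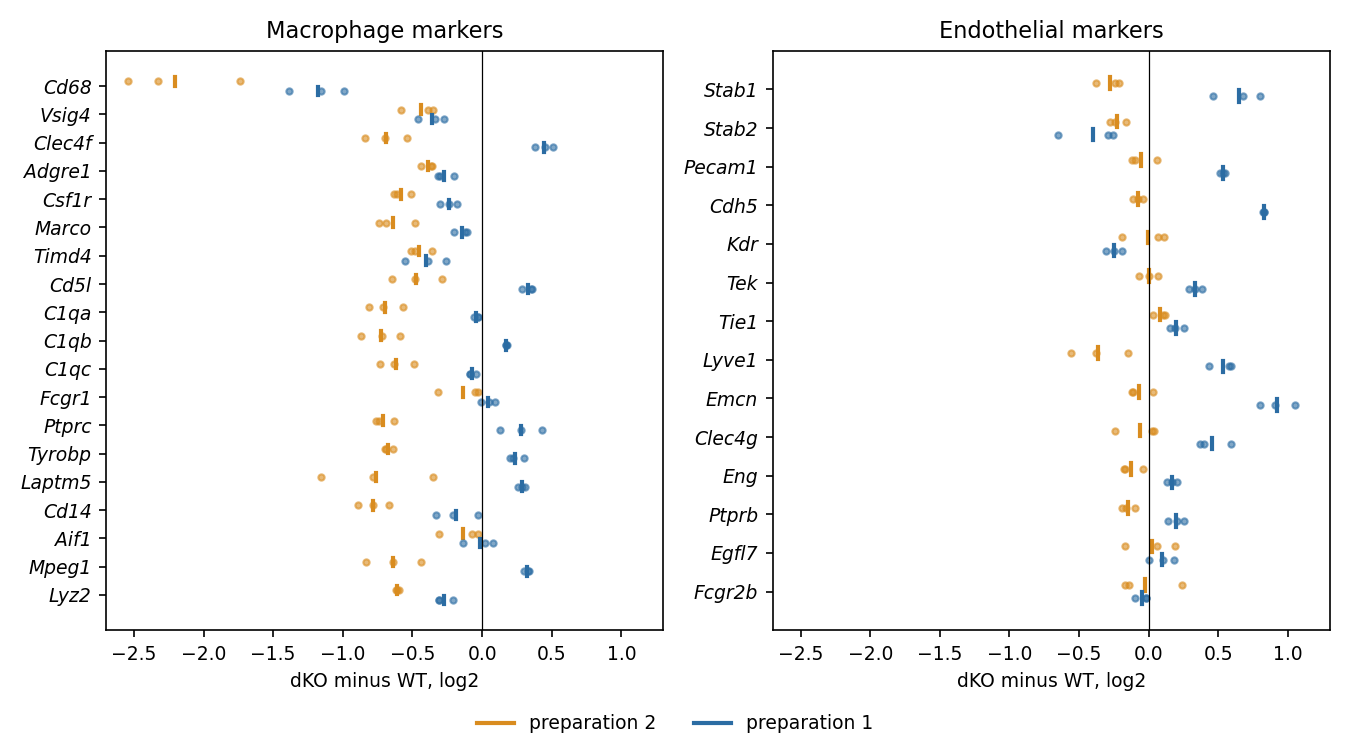
The dKO minus WT difference (log2) of each marker in preparation 2 (upper, orange) and preparation 1 (lower, blue). Points are the 3 treatments and ticks their mean. In preparation 2 all 19 macrophage markers lie left of 0, and in preparation 1 the macrophage markers lie on both sides and most endothelial markers lie right of 0.

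Endothelial markers were shifted the same way from another starting point. Their median dKO minus WT difference was -0.06 in preparation 2 and 0.26 in preparation 1. In preparation 2 dKO read lower under each treatment for 6 of 14 and higher for 1, against 21.3% and 19.8% of all genes. In preparation 1 it read lower for 3 and higher for 10, against 27.2% and 26.4% of all genes.

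Of the endothelial markers Emcn changed most between preparation numbers, by -0.99, followed by Stab1 (-0.92), Cdh5 (-0.90) and Lyve1 (-0.90). Emcn read 5.60, 5.90 and 5.55 in dKO preparation 2 and 6.02, 6.42 and 6.12 in dKO preparation 1, against 5.71, 5.87 and 5.67 in WT preparation 2 and 5.23, 5.51 and 5.07 in WT preparation 1. Emcn encodes endomucin, a sialoglycoprotein of capillary and venous endothelium. Cdh5 read 6.76, 7.26 and 6.77 in dKO preparation 2 and 7.27, 7.66 and 7.24 in dKO preparation 1, against 6.87, 7.30 and 6.85 in WT preparation 2 and 6.45, 6.83 and 6.41 in WT preparation 1. Cdh5 encodes VE-cadherin, the adhesion protein of endothelial junctions. In both genes the dKO minus WT differences of preparation 2 lay between -0.12 and 0.03. In preparation 1 dKO was above WT without overlap in Cdh5 and in Emcn, by 0.82 to 0.83 and 0.80 to 1.05. Pecam1 read 6.17, 6.24 and 6.19 in dKO preparation 2 and 6.44, 6.58 and 6.47 in dKO preparation 1, against 6.27, 6.36 and 6.13 in WT preparation 2 and 5.91, 6.03 and 5.96 in WT preparation 1. Pecam1 (CD31), also at endothelial junctions, had a dKO minus WT difference of -0.05 ± 0.10 in preparation 2 and 0.53 ± 0.02 in preparation 1.

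Receptors of sinusoidal endothelium behaved in 2 ways. Stab1 read 6.88, 7.15 and 6.90 in dKO preparation 2 and 7.45, 7.43 and 7.46 in dKO preparation 1, against 7.11, 7.36 and 7.28 in WT preparation 2 and 6.65, 6.97 and 6.78 in WT preparation 1. Lyve1 read 7.85, 8.22 and 7.83 in dKO preparation 2 and 8.26, 8.60 and 8.40 in dKO preparation 1, against 8.23, 8.37 and 8.38 in WT preparation 2 and 7.83, 8.01 and 7.82 in WT preparation 1. In Stab1, a scavenger receptor that macrophages also make, and in Lyve1, dKO was below WT under every treatment in preparation 2 and above it in preparation 1. Clec4g read 5.78, 5.92 and 5.88 in dKO preparation 2 and 6.14, 6.25 and 5.97 in dKO preparation 1, against 6.02, 5.91 and 5.83 in WT preparation 2 and 5.74, 5.66 and 5.60 in WT preparation 1. Clec4g, a lectin of sinusoidal endothelium, had a dKO minus WT difference of -0.06 ± 0.16 in preparation 2 and 0.45 ± 0.12 in preparation 1. The probe set used for it stood only 0.57 above MEFs on average.

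Stab2 and Kdr did not follow. Stab2 read 7.54, 8.18 and 7.58 in dKO preparation 2 and 7.54, 7.94 and 7.56 in dKO preparation 1, against 7.70, 8.46 and 7.82 in WT preparation 2 and 7.80, 8.59 and 7.85 in WT preparation 1. Kdr read 6.78, 6.65 and 6.68 in dKO preparation 2 and 6.62, 6.60 and 6.53 in dKO preparation 1, against 6.68, 6.85 and 6.61 in WT preparation 2 and 6.87, 6.78 and 6.84 in WT preparation 1. Stab2 read lower in dKO in both preparations, with a difference of -0.23 ± 0.06 in preparation 2 and -0.40 ± 0.22 in preparation 1, and the change between them was 0.17 with an SE of 0.08 (limma, adjusted p = 0.164). For Kdr that change was 0.24 with an SE of 0.09 (adjusted p = 0.0688). Tie1, Egfl7 and Fcgr2b did not pass either, with changes from -0.11 to 0.03, while Tek, Ptprb and Eng passed with changes from -0.35 to -0.29. The Fcgr2b probe set used had dKO minus WT differences of -0.02 in preparation 2 and -0.05 in preparation 1. Fcgr2b probe sets at least 1 above MEFs had 0.11 to 0.21 and 0.15 to 0.28. The remaining one, near the MEF level, had 0.06 and -0.06.

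Probe sets that stood at least 1 above MEFs changed more, in the median, than the others. Of these 32 probe sets 31 had a lower dKO minus WT difference in preparation 2 than in preparation 1, with a median change of -0.60. Of the 25 others 18 did, with a median change of -0.07. Of all 18032 genes, 9425 had a higher difference in preparation 2, with a median change of 0.01. Several probe sets of 1 gene count separately here. Further probe sets of Marco, C1qb and Lyve1 also had a lower dKO minus WT difference in preparation 2 than in preparation 1. Near the MEF level, a further probe set each of Ptprc, Cdh5 and Clec4g had dKO minus WT differences of 0.05, 0.02 and -0.0 in preparation 2. In preparation 1 these values were -0.02, 0.09 and -0.03.

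Genes of some other lists changed with the members. Of all genes 15.1% were called lower and 10.9% higher. In the same test 18 of 31 further macrophage genes were called lower and 3 higher, 11 of 35 further endothelial genes lower and 4 higher, and 7 of 19 stellate cell or fibroblast genes lower and 1 higher. Hepatocyte genes went the other way, with 13 of 22 called higher and 3 lower and a median change of 0.15. Of 15 lymphocyte and 4 erythroid genes none was called (0 and 0 at an unadjusted p under 0.05), and of 8 neutrophil genes 2 were called lower. Of 7 cholangiocyte genes 2 were called higher and 1 lower, and of 9 proliferation genes 1 higher and 3 lower. The part of these cells in the members' values was not tested.

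**Figure D3:**
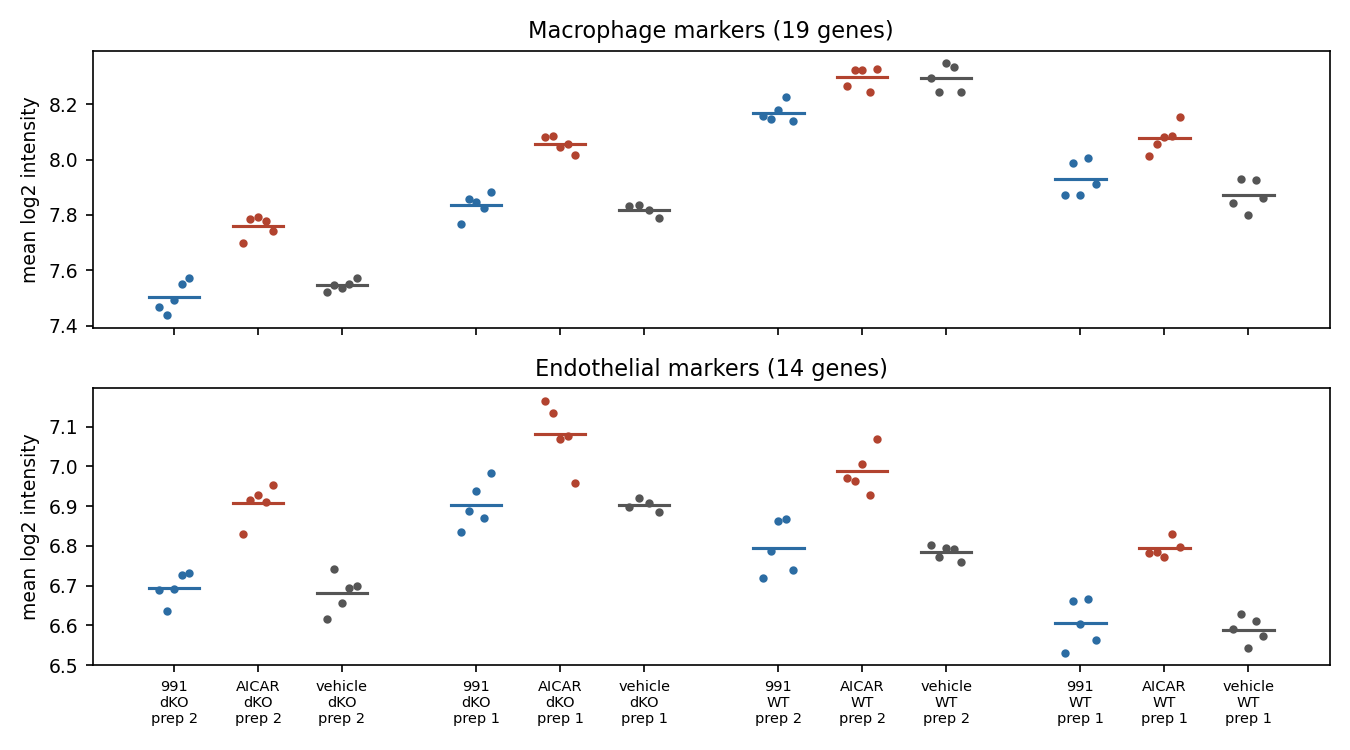
Mean level (log2 intensity) of the 19 macrophage markers (top) and the 14 endothelial markers (bottom) in each of the 59 hepatocyte arrays. Points are technical replicates and lines their mean. In preparation 2 the macrophage mean is lower in dKO (7.50 to 7.76) than in WT (8.17 to 8.30). In preparation 1 the endothelial mean is higher in dKO (6.90 to 7.08) than in WT (6.59 to 6.79). Levels can be compared only within a preparation number, since the difference common to both genotypes had been removed.

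Averaged over preparations, the genotypes could not be separated by the test. Under vehicle no gene of the 18032 was called in dKO against WT with 2 preparations each (0% of all genes called higher and 0% lower, limma). At an unadjusted p under 0.05, 9 of 19 macrophage markers were lower and none higher, 1 of 14 endothelial markers was lower, and 453 genes in all were lower and 384 higher. The median difference was -0.41 over macrophage markers, 0.11 over endothelial markers and 0.00 over all genes. Cd68 had the largest, -1.74 with an SE of 0.26, a 3.35-fold lower level in dKO (adjusted p = 0.832). Cd68 was called when either dKO preparation was left out (-2.06 without preparation 1 and -1.43 without preparation 2, adjusted p = 0.00408 and 0.0186), where the lone dKO sample is assumed to vary like the WT ones. Since part of the spread between preparations is no longer in the deposited values, these p-values do not reflect the full spread between preparations.

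Some endothelial markers rose with AICAR in both genotypes, at most 1.61-fold, and some macrophage markers rose in dKO. In dKO 10 of 19 macrophage and 6 of 14 endothelial markers rose and none fell, against 10.6% of all genes called higher and 7.31% called lower (limma). In WT 1 of 19 macrophage and 5 of 14 endothelial markers rose and none fell, against 8.56% of all genes called higher and 8.02% called lower. The macrophage count in WT was not above the share over all genes. The median change was 0.25 over macrophage and 0.14 over endothelial markers in dKO, 0.13 and 0.14 in WT, and 0.04 over all genes in both genotypes.

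The largest response in both genotypes was that of Stab2. In dKO it read 8.18 with AICAR and 7.58 with vehicle in preparation 2, and 7.94 with AICAR and 7.56 with vehicle in preparation 1. In WT it read 8.46 with AICAR and 7.82 with vehicle in preparation 2, and 8.59 with AICAR and 7.85 with vehicle in preparation 1. The change was 0.49 in dKO and 0.69 in WT (SE 0.07 each, limma, adjusted p = 0.000915 and 0.000148), that is 1.40-fold and 1.61-fold, and AICAR and vehicle levels did not overlap within either genotype.

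Cdh5, Tek, Emcn and Ptprb also rose in both genotypes. Cdh5 rose by 0.45 in dKO and 0.43 in WT (SE 0.06 each, limma, adjusted p = 0.000574 and 0.000984), and its rise was between 0.41 and 0.49 in all 4 preparations. Tek read 5.19, 5.57 and 5.08 in dKO preparation 2 and 5.34, 5.67 and 5.35 in dKO preparation 1, against 5.26, 5.51 and 5.09 in WT preparation 2 and 5.02, 5.38 and 4.97 in WT preparation 1. Tek is the angiopoietin receptor TIE2, and it rose by 0.40 in dKO and 0.41 in WT. Emcn rose by 0.33 in dKO and 0.32 in WT. Ptprb read 5.75, 5.96 and 5.72 in dKO preparation 2 and 5.83, 6.19 and 5.94 in dKO preparation 1, against 5.85, 6.14 and 5.88 in WT preparation 2 and 5.70, 5.99 and 5.68 in WT preparation 1. Ptprb encodes VE-PTP, a phosphatase that acts on TIE2 and VE-cadherin, and rose by 0.24 in dKO and 0.28 in WT, on a probe set with 5.47 to 7.04 in MEFs. Lyve1 rose by 0.30 in dKO, and its change in WT was 0.09 with an SE of 0.07.

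Macrophage genes that rose in dKO were led by Laptm5 (0.46), Cd68 (0.45) and Vsig4 (0.43), followed by C1qb (0.36), Cd5l (0.34), Clec4f (0.33), Marco (0.31), C1qa (0.28), Aif1 (0.27) and C1qc (0.25). In WT Vsig4 alone rose, by 0.29 with an SE of 0.09 (limma, adjusted p = 0.0443). The WT preparations differed here, since the median change over macrophage markers was 0.02 in preparation 2 and 0.26 in preparation 1, while in dKO it was 0.22 and 0.27. Clec4f changed by 0.02 in WT preparation 2 and by 0.41 in WT preparation 1. Cd14 and Lyz2 read lower with AICAR than with vehicle in 3 and 4 of the 4 preparations, without passing the test.

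Individual calls depended on the preparations. Without dKO preparation 1 Cd68, Cdh5, Stab2 and Tek remained called in dKO, and without dKO preparation 2 Cd68, Cdh5, Stab2 and Vsig4 did. Without WT preparation 1 Cdh5, Stab2 and Tek remained called in WT. With no preparation block 3 members remained called in dKO (Aif1, Stab2 and Vsig4) and 1 in WT (Stab2). Of all genes, 1078 in dKO and 719 in WT were called without the block, against 3221 and 2991 with it.

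991 changed few markers. In dKO none of the 33 was called (limma), against 0% of all genes called higher and 0.00555% called lower, and at an unadjusted p under 0.05 only Ptprc (-0.22) and Lyz2 (-0.28) were lower. In WT Cd68 and Fcgr2b rose and Lyz2 fell, against 3.74% of all genes called higher and 2.39% called lower. The median change over macrophage and endothelial markers was 0.00 and -0.01 in dKO and -0.07 and 0.01 in WT.

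Of the 3 members that changed in WT, Cd68 and Lyz2 are macrophage markers and Fcgr2b an endothelial one. Cd68 rose by 0.31 with an SE of 0.08 (limma, adjusted p = 0.0348). Lyz2 read 7.18, 7.41 and 7.47 in dKO preparation 2 and 7.37, 7.56 and 7.63 in dKO preparation 1, against 7.80, 8.0 and 8.08 in WT preparation 2 and 7.68, 7.77 and 7.95 in WT preparation 1. Lyz2 encodes the lysozyme of macrophages and neutrophils, and changed by -0.28 in dKO and -0.27 in WT (SE 0.06 each, adjusted p = 0.281 and 0.0231), with 991 below vehicle in all 4 preparations. Fcgr2b read 8.64, 8.51 and 8.58 in dKO preparation 2 and 8.62, 8.57 and 8.50 in dKO preparation 1, against 8.78, 8.68 and 8.34 in WT preparation 2 and 8.73, 8.59 and 8.52 in WT preparation 1. Fcgr2b rose by 0.32 with an SE of 0.07 (adjusted p = 0.0246). The probe set that stood furthest above MEFs gave 0.17 for it (adjusted p = 0.212). None of the 3 was called without WT preparation 2 and only Fcgr2b was called without WT preparation 1.

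No marker's response differed between dKO and WT beyond the spread. For 991 the share of all genes called was 0.0832% higher and 0.338% lower in dKO, and for AICAR it was 0.155% in each direction, with 0 of 33 members called for either (limma). At an unadjusted p under 0.05 the 991 response differed for Aif1 (0.21) and Fcgr2b (-0.24). The AICAR response differed at that level for Cd68 (0.38), Laptm5 (0.43), Aif1 (0.26) and Egfl7 (0.27). Without dKO preparation 1 the AICAR response of Cd68 was called, with 0.56 (adjusted p = 0.0254). A difference that misses the threshold with 2 preparations does not show that the genotypes responded alike.

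**Figure D4:**
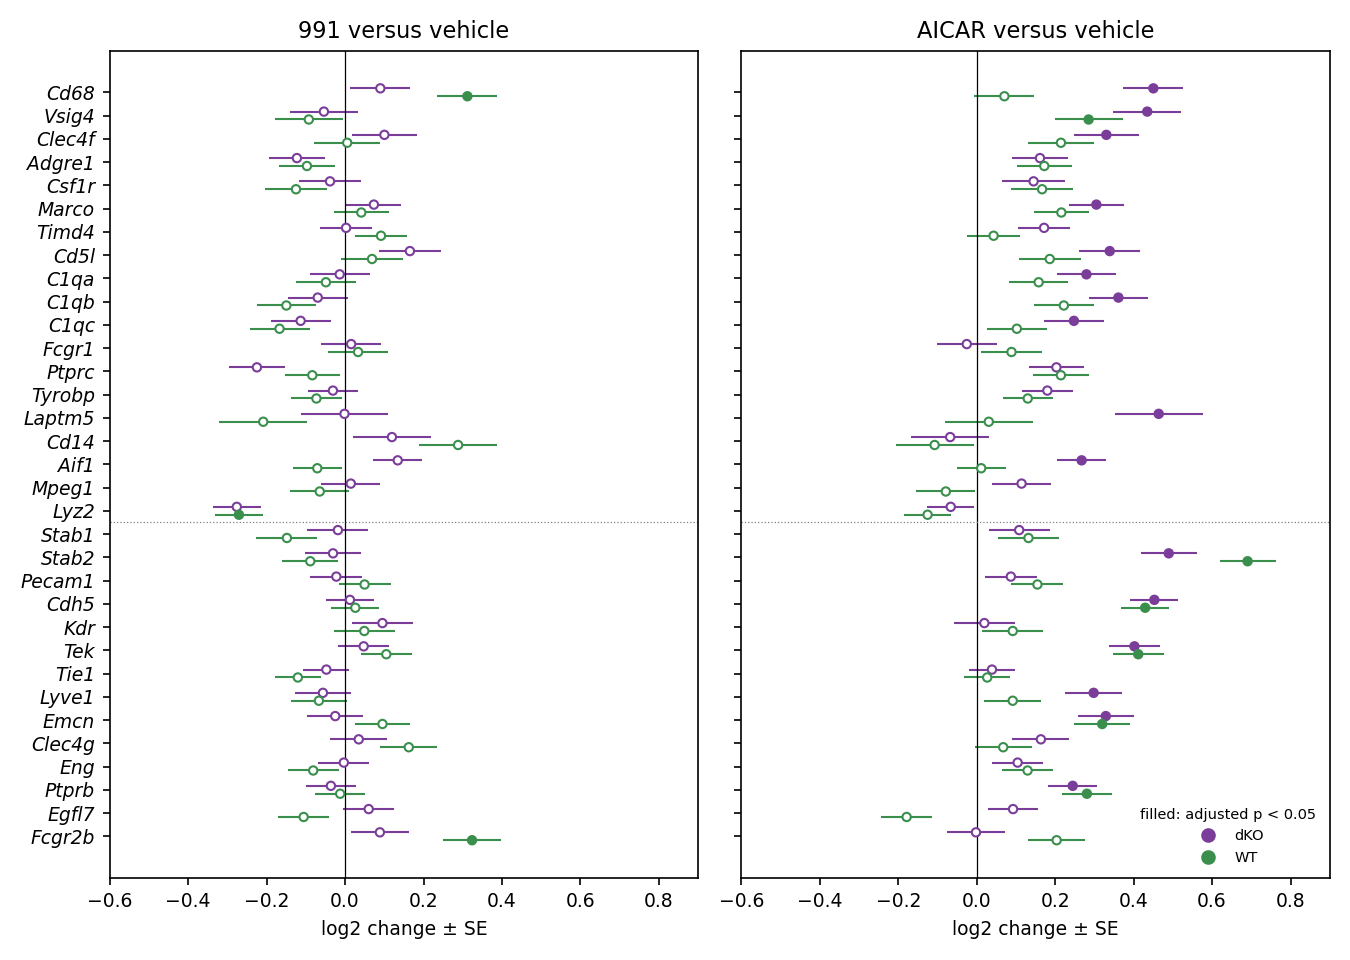
Change (log2, ± SE) of each marker with 991 (left) and AICAR (right) against vehicle in dKO (purple, upper) and WT (green, lower) hepatocytes, with n = 2 preparations in every group. Filled points passed the test and the dotted line parts macrophage genes (above) from endothelial genes. With AICAR most points lie right of 0, up to 0.69 for Stab2 in WT, and with 991 they lie on both sides of 0.

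Hepatocyte genes were among those that rose with AICAR. Of 22 hepatocyte genes 12 rose in dKO and 11 in WT and none fell, with a median change of 0.19 in both. Of 31 further macrophage genes 14 rose and 1 fell in dKO, and 4 rose and 1 fell in WT. Of 35 further endothelial genes 8 rose in dKO and 6 in WT, and none fell. Of 15 lymphocyte genes 1 rose in each genotype. Whether cell number or RNA per cell stands behind the members' rise was not tested.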

How the data were processed

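RNA of 59 hepatocyte and 23 MEF arrays was measured on Affymetrix mouse arrays. Per the submitters' processing notes the arrays were processed with RMA and Partek, and the deposited values are log2 intensities, 1 for each probe set. As the labels state, 1 array of each cell type had been excluded by the authors as an outlier. Whether the cell types were normalized together, and which step removed the difference between preparation numbers common to both genotypes, is a point on which the sources used here are silent. Technical replicate numbers were not removed in that way (root mean square difference 0.0349 to 0.0424).

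Of 45101 probe sets 64 controls were left out, and of the other 45037, 34945 had 1 gene symbol, 932 several and 9160 none in the annotation used. By Entrez identifier 34741 matched RefSeq genes (GRCm38.p6), and 18032 genes were each represented by their brightest probe set, by the mean over hepatocyte arrays. Of the members, 20 had a single probe set. No filter on dim genes was applied and no column of the table was left unused.

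The arrays of each group were averaged within a preparation, giving 12 means, and limma 3.58.1 (R 4.3.3, moderated variances with an intensity trend) was fitted to these with treatment within genotype and the preparation within genotype as a block. Benjamini-Hochberg adjustment ran over the whole set of genes, and calls were made at 0.05. dKO against WT used 4 vehicle means without a block. With the block, p-values measure the spread between treatments within these preparations, and the fit leaves 4 residual degrees of freedom. For dKO against WT they measure what spread between preparations the deposited values still hold. The number of preparations, 2 in each genotype, limits the precision. On simulated data for AICAR against vehicle in WT with 18032 genes, 99% of 100 genes changed by 0.5 and 100% of 100 changed by 1 (log2) were recovered, with 8 false calls. The simulated noise was independent and both preparations had the same change. Recovery where preparations respond differently was therefore not measured. Treatments of a preparation were taken as cultures of the same cells, which is where that block comes from. Across genotypes, same-numbered vehicle samples deviated with a correlation of -0.775. This follows from the removed difference, so it cannot show whether the numbers pair the samples. Tables and figures were made with Python 3.11.15, pandas 2.3.3, numpy 2.4.6 and matplotlib 3.10.9. No pair of arrays was identical.

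The members, the lists of other cells and the tests were chosen with earlier results of these data known. Values in all 12 means are given for 7 members fixed by name (Clec4f, Vsig4, Cd5l, Stab2, Lyve1, Pecam1 and Kdr), for up to 6 macrophage and 6 endothelial members with the largest preparation difference, and, in each other comparison, for the 6 or fewer called members that changed most. From each other list up to 4 called genes with the largest change could be named. Members named beyond these were named after their values were seen. Alternatives were quantile normalization, a floor at the median intensity, averaged probe sets, the probe set furthest above MEFs, no trend, every array as a sample, no or another block, the mean of the 3 treatments, each preparation alone, and leaving out each preparation or treatment.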

Additional observations from a re-analysis of the deposited data

Results flagged for a closer look

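The dKO minus WT difference changed between preparation numbers for 23 of 33 markers (14 macrophage and 9 endothelial, limma interaction of genotype and preparation number, adjusted p under 0.05), all of them lower in preparation 2, where 15.1% of all genes were called lower and 10.9% higher. Its median was -0.63 in preparation 2 and -0.04 in preparation 1 over macrophage markers, and -0.06 and 0.26 over endothelial markers. Hepatocyte genes moved with it in the other direction (13 of 22 higher, 3 lower), and the part of cell makeup in it was not tested. In the 12 groups of technical replicates no array stood apart from its group in the mean level of the macrophage or of the endothelial markers.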

How the results depend on the processing

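The count of 23 members whose dKO minus WT difference changed between preparation numbers lay between 17 (of 22 members at or above the median level) and 26 under all 9 alternatives run for it. Of all genes, 4691 were called in the main setting and 2833 to 7942 under these alternatives. With every array as a sample, which counts technical replicates as samples, the members called numbered 2 for 991 in dKO, 10 for 991 in WT, 23 for AICAR in WT, 2 and 7 for the dKO minus WT differences of the 991 and AICAR responses, and 17 for dKO against WT under vehicle. Of the 18032 genes, that setting called 784, 5740, 7658, 2108, 2308 and 2284 in the same order. With no replicate block within genotype the members called numbered 0 for 991 in WT, 3 for AICAR in dKO and 1 for AICAR in WT. Of all genes, 167, 1078 and 719 were called without that block, against 1105, 3221 and 2991 with it. With the preparation number as a replicate block across genotypes, dKO against WT gave 0. The crossed pairing, chosen after seeing the data, gave 19 members of 1409 genes, and its pairing correlation is produced by the removal of the common preparation difference. Leaving out each preparation in turn gave 0 to 4 members for 991 in WT, 4 to 16 for AICAR in dKO, 3 to 9 for AICAR in WT, 0 to 1 for the difference in AICAR response and 0 to 1 for dKO against WT. For 991 in WT and AICAR in either genotype, fewer of all genes were called when a preparation of that genotype was left out. Fewer samples leave fewer degrees of freedom there, and for other losses the cause was not tested. No member called in the main setting changed direction under an alternative. Markers with a level near that of MEFs (Fcgr1, Kdr, Eng, Ptprb, Egfl7 and Fcgr2b) limit what those probe sets can show of their cells. Timd4 and Clec4g stood only 0.56 and 0.57 above MEFs on average.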

Other observations

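Among macrophage genes outside the members, Cd74 and H2-Aa had the largest changes in the dKO minus WT difference, taken as preparation 2 minus preparation 1. Cd74, the invariant chain of MHC class II, changed by -2.90 with an SE of 0.08 and H2-Aa by -2.29 with an SE of 0.12 (limma, adjusted p = 1.07e-09 and 2.02e-07). The lysosomal protease Ctss changed by -1.38 and the chemokine Ccl6 by -1.33.

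Among endothelial genes outside the members the largest changes were those of Fabp4, at -2.35 (SE 0.08), and Cd36, at -1.28 (SE 0.08), followed by Cd93 at -0.99 and Oit3 at -0.88. Of stellate cell and fibroblast genes, Dcn (decorin) changed by -2.07 and Reln by 0.76. Among hepatocyte genes the gluconeogenic G6pc changed by 1.60, Tat by 0.85, Ahsg by 0.65 and Fga by 0.58. With AICAR, Bmp2 rose by 0.74 in dKO and 0.57 in WT, and the phagocytic receptor Mertk rose by 0.52 in dKO and 0.39 in WT.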
